A study of Mus musculus with 8 samples.

Results

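Cholesterol and fatty acid synthesis genes were examined in the prefrontal cortex of mice labelled Mll1 knockout. The 31 genes were taken by name from a list of the mevalonate pathway, the sterol branch, the SREBP regulators, fatty acid synthesis, elongation and desaturation, plus the cholesterol hydroxylase gene Cyp46a1. All 31 were found among the 23983 genes tested, each through 1 transcript cluster, a group of probes along the gene that is summarised as 1 value. Arrays labelled Mll1 knockout came from 4 male mice and wild-type arrays from 4 male mice, all 12 weeks old, kept in standard housing and then alone for 1 week, with no treatment given. The tissue was prefrontal cortex, given in the labels as cingulate cortex, and 1 array was hybridised per sample. Mll1, now named Kmt2a, encodes a histone methyltransferase that writes a mark of active promoters. The series title speaks of the neuronal gene, and the labels name neither the driver of the deletion nor the exons removed, so a deletion in neurons alone would leave other cells of the tissue intact.

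The adult brain makes nearly all of its own cholesterol, because lipoproteins of the blood do not cross the blood-brain barrier. Carbon from acetyl-CoA passes through the mevalonate pathway to farnesyl diphosphate and then through squalene and lanosterol to cholesterol. When sterols are low, SCAP carries the transcription factors SREBP1 and SREBP2 (genes Srebf1 and Srebf2) to the Golgi, where they are cut and released to the nucleus. The INSIG proteins hold SCAP back when sterols are high. SREBP2 mainly drives sterol genes and SREBP1 mainly fatty acid genes, and Insig1 is itself a target of both. In cortex, oligodendrocytes and astrocytes express many of these enzymes strongly, while Cyp46a1 acts in neurons.

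Promoter sequences of 25 of the 31 genes were held in the RefSeq table for GRCm38.p6. Fads1, Fdft1, Fdps, Scd1, Scd2 and Sqle were without an entry. Each window ran from 250 bases before to 50 bases after a transcript start, and both strands were searched. The letters CACNCCA, the core of many sterol regulatory elements, stood in a window of 5 of 25 genes (20%: Acat2, Hmgcs1, Insig1, Insig2 and Srebf2), against 20.6% of all 27025 genes with a window. The CCAAT box, bound by NF-Y, which acts beside SREBPs, stood in 20 of 25 genes (80%), against 41.1% of all genes. The E-box CACGTG stood in 5 of 25 genes (20%: Dhcr7, Elovl5, Hsd17b7, Insig1 and Scap), against 8.09% of all genes. Because some genes have several starts, shares were also taken per window, and CCAAT then stood in 63.6% of the 33 windows of these genes and in 37.4% of all 32851 windows. Such matches are short strings of letters and describe the sequence only. The 250 bases before the start are shown for 3 genes: Insig1, whose measured difference lay farthest below 0 and whose promoter held all 3 motifs, Hmgcs1, the gene with the lowest difference in the mevalonate pathway, and Fads2, whose difference lay farthest above 0. Insig1 lies at chr5:28071162-28071411 on the plus strand, Hmgcs1 at chr13:119690101-119690350 on the plus strand and Fads2 at chr19:10101504-10101753 on the minus strand. Sequences read 5′ to 3′ along the gene, and capitals mark motif matches on either strand, none of which overlap.
Insig1: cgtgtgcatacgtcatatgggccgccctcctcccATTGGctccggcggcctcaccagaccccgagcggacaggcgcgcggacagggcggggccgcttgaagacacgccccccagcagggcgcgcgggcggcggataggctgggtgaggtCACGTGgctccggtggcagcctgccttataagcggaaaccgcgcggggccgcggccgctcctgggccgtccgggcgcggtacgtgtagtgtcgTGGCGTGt
Hmgcs1: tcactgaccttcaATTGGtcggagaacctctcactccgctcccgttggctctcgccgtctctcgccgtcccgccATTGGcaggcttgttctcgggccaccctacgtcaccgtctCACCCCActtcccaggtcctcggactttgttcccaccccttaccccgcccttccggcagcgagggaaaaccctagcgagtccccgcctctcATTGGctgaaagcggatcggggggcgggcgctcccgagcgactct
Fads2: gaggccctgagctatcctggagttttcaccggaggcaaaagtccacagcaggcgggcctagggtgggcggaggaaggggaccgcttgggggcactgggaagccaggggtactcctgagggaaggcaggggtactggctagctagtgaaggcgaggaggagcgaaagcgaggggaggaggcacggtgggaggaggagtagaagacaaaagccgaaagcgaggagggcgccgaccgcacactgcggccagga
In the Insig1 stretch the capitals are, in order, 1 CCAAT on the minus strand (read as ATTGG), 1 CACGTG and 1 CACNCCA on the minus strand. The Hmgcs1 stretch held 3 CCAAT on the minus strand and 1 CACNCCA. The Fads2 stretch held none of these letters.

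The targeted gene was read first. Kmt2a had log2 signals of 10.42, 10.38, 10.29 and 10.30 on arrays 1 to 4 labelled Mll1 knockout, against 9.94, 10.13, 10.12 and 10.06 on wild-type arrays 1 to 4. The groups did not overlap, and the signal was higher on the arrays labelled knockout by 0.29 ± 0.057 (SE, n = 4 and 4; limma adjusted p = 0.0142), the opposite of the direction a loss of transcript would give. Since the deleted exons are not named, this probe set may lie outside them and does not check the labels, and every direction below is that of the labels.

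On the first principal component of all genes, which held 42.7% of the variance, the arrays labelled Mll1 knockout lay at 9.19 to 13.6 and the wild-type arrays at -20.3 to -7.52. Wild-type array 1 stood farthest out, and wild-type array 4 stood alone on the second component at -19.2, so results are also given without both. Apart from the count of 4 mice per genotype in the series' design text, nothing said how replicates arose, and p-values measure the spread between these samples. In whole tissue, fewer cells of a type and less RNA per cell cannot be told apart. All 13 neuron markers and all 14 astrocyte markers tested, and 17 of 18 oligodendrocyte markers, lay above the array median on every array. Over all genes 5.15% passed as higher and 5.69% as lower (limma, adjusted p under 0.05). Of the 18 oligodendrocyte markers 1 passed as lower (Enpp2, which encodes a secreted lysophospholipase, -0.46 ± 0.065 SE, adjusted p = 0.0031). None of these markers passed as higher, and the median difference over the list was -0.11. Their summed signal spanned 14.92 to 15.16 (log2) on arrays labelled knockout and 15.07 to 15.20 on wild-type arrays. Among 10 precursor markers only Pdgfra, the growth factor receptor of these precursors, passed (0.22 ± 0.044 SE, adjusted p = 0.0143), with summed signals of 12.54 to 12.65 on arrays labelled knockout and 12.48 to 12.53 on wild-type arrays. None of 14 astrocyte, 12 microglia, 12 endothelial or 8 choroid plexus markers passed. Summed astrocyte signals spanned 15.28 to 15.32 on arrays labelled knockout and 15.23 to 15.28 on wild-type arrays. By the same test 1 neuron marker passed as higher and 2 as lower, with summed neuron signals of 15.80 to 15.83 on arrays labelled knockout and 15.78 to 15.85 on wild-type arrays. Of 8 blood markers 3 passed as lower, as did 3 of 10 immediate early genes. After quantile normalization 0 blood markers, 0 precursor markers and 3 immediate early genes passed, and 1 astrocyte marker passed as lower. The part of these cell types in the lipid gene values was not tested.

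The first comparison asked whether genotype altered the lipid synthesis genes. None of the 31 genes passed the test in either direction (limma, Benjamini-Hochberg over 23983 genes, adjusted p under 0.05). Over all genes 5.15% passed as higher (1236) and 5.69% as lower (1364), 10.8% in all. At an unadjusted p under 0.05, Fads2 and Acaca lay higher and no gene lay lower, which is 2 of 31 (6.45%) against 33% of all genes. The knockout and wild-type values overlapped for all 31 genes, whereas 19.5% of all genes had groups that did not overlap. In the authors' deposited table, which used an unmoderated test per cluster, none of the 31 genes had an FDR p-value under 0.05 (lowest 0.131, for Fads2), 2 had an unadjusted p-value under 0.05, and 4.13% of all 28944 clusters had an FDR p-value under 0.05.

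The differences were small, and their intervals bound them. They ran from -0.15 for Insig1 to 0.15 for Fads2 on the log2 scale, with 22 above 0, 8 below and Tm7sf2 at 0. The 95% intervals of all 31 lay within 1.3-fold in either direction, as did those of 21478 of the 23983 genes. The bound farthest from 0, that of Insig1, was at 1.23-fold lower, and the widest interval was that of Idi1 (-0.25 to 0.28). The median difference of the 31 genes was 0.04, against -0.03 over all genes. That offset went with signal level: the 11411 genes with a mean signal in the range of these genes (8.33 to 12.9) had a median of 0.05, and 66.7% of them lay above 0. Quantile normalization of the deposited values brought the median to -0.01 for the 31 genes and -0.01 for all genes, with 12 of the 31 above 0 and 19 below. So the count of genes above 0 depends on the scaling of the arrays and gives no direction for the group.

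**Figure D1:**
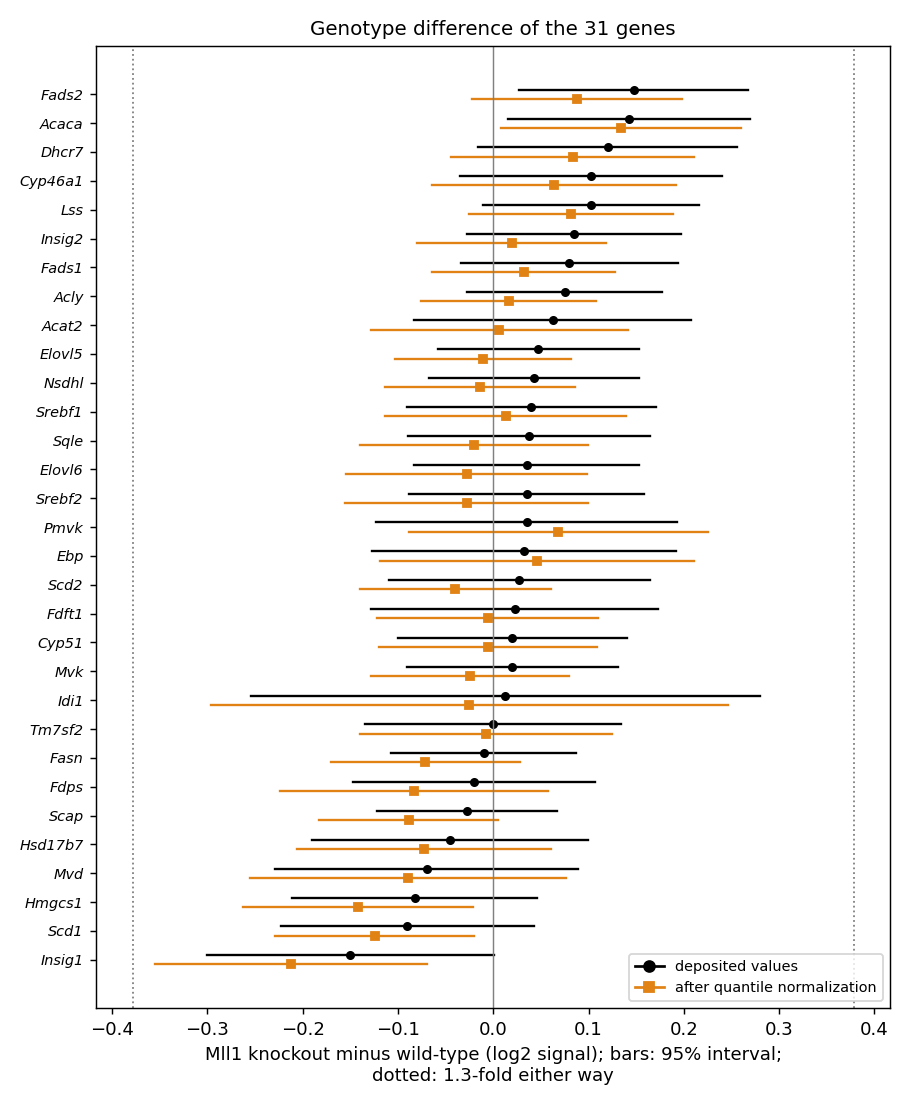
Difference of each of the 31 genes, arrays labelled Mll1 knockout minus wild-type (x axis, log2 signal), for the deposited values (black circles) and after quantile normalization (orange squares), with 95% intervals as bars and 1.3-fold either way dotted. All black intervals lie within the dotted lines, those of Fads2 and Acaca lie wholly above 0, and quantile normalization moves most genes to the left.

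Averaged over the 31 genes, the log2 signal was 10.07 ± 0.022 on the arrays labelled Mll1 knockout and 10.04 ± 0.041 on the wild-type arrays (SD, n = 4 each), a difference of 0.03 that becomes -0.01 after quantile normalization. Wild-type array 1 had the lowest average, 9.99, and the lowest value of all arrays for 19 of the 31 genes (ties counted). Wild-type array 4 held the highest value for 9 genes and the lowest for 12. Without both arrays none of the 31 genes passed (limma, adjusted p), 14 lay above 0 and 17 below, and the differences were -0.15 for Insig1 and 0.18 for Fads2 (adjusted p = 0.119). For 21 of the 31 genes the spread between arrays was larger in wild-type, close to the 64.7% of all genes for which it was.

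No sterol synthesis enzyme passed, and a shift shared by these enzymes was not tested. Of the 7 mevalonate pathway genes 4 lay above 0 and 3 below, with differences of -0.08 to 0.06 and adjusted p of 0.335 to 0.953. Hmgcs1, which makes HMG-CoA, was lowest among them: it had 11.13, 11.11, 10.91 and 11.10 on arrays 1 to 4 labelled Mll1 knockout, against 11.09, 11.21, 11.11 and 11.17 on wild-type arrays 1 to 4. Array 3 labelled knockout lay below the other 3, which overlapped the wild-type values, and the difference was -0.08 ± 0.059 (SE; 95% interval -0.21 to 0.05; adjusted p = 0.335). Idi1, the isomerase of isopentenyl diphosphate, had the widest wild-type spread: it read 9.36, 9.54, 9.37 and 9.54 on the arrays labelled knockout, against 9.18, 9.46, 9.26 and 9.86 on the wild-type arrays. Its knockout values all lay between the wild-type extremes, with a difference of 0.01 ± 0.12 (SE; interval -0.25 to 0.28). These 2 genes were given in full after their values were seen. Acat2, the cytosolic thiolase of the first step, differed by 0.06, the mevalonate kinase Mvk by 0.02, the phosphomevalonate kinase Pmvk by 0.04, the decarboxylase Mvd by -0.07 and the farnesyl diphosphate synthase Fdps by -0.02.

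In the sterol branch 7 of 9 genes lay above 0, 1 below and 1 at 0, with adjusted p of 0.187 to 1. After quantile normalization 3 of the 9 lay above 0. Lss, which closes the ring of lanosterol, had the lowest p. It read 9.04, 8.99, 8.94 and 8.94 on arrays 1 to 4 labelled Mll1 knockout, against 8.78, 8.95, 8.91 and 8.86 on wild-type arrays 1 to 4. The knockout values lay above 3 of the 4 wild-type values and overlapped with wild-type array 2, and the difference of 0.10 ± 0.052 (SE; interval -0.01 to 0.22) did not pass (adjusted p = 0.187). Dhcr7, a reductase of the last steps, differed by 0.12 (interval -0.02 to 0.26; adjusted p = 0.196), and by 0.03 without wild-type arrays 1 and 4. Among the rest, squalene synthase Fdft1 differed by 0.02, squalene epoxidase Sqle by 0.04, lanosterol demethylase Cyp51 by 0.02, the dehydrogenases Nsdhl and Hsd17b7 by 0.04 and -0.05, the isomerase Ebp by 0.03 and the sterol reductase Tm7sf2 by 0.

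Among the 5 regulators, the transcription factors and their escort stayed close to wild-type on the deposited values and Insig1 lay lowest. Srebf1 read 9.14, 9.05, 9.15 and 9.01 on arrays 1 to 4 labelled Mll1 knockout, against 9.10, 9.08, 9.11 and 8.90 on wild-type arrays 1 to 4. Srebf2 read 10.63, 10.57, 10.55 and 10.52 on the arrays labelled knockout, against 10.51, 10.57, 10.64 and 10.41 on the wild-type arrays. Both groups overlapped throughout for each gene, wild-type array 4 being the lowest for both, and the differences were 0.04 ± 0.06 for Srebf1 (adjusted p = 0.656) and 0.04 ± 0.057 for Srebf2 (SE; adjusted p = 0.683). Their 95% intervals ran from -0.09 to 0.17 and from -0.09 to 0.16. The cluster of Srebf1 sums its transcripts and does not separate the isoforms of SREBP1. Scap read 10.30, 10.25, 10.30 and 10.30 on the arrays labelled knockout, against 10.30, 10.35, 10.32 and 10.29 on the wild-type arrays. All 8 values lay between 10.25 and 10.35, and the difference was -0.03 ± 0.043 (SE; interval -0.12 to 0.07). After quantile normalization the difference of Scap was -0.09 (limma adjusted p = 0.260). Its groups then did not overlap, as for 14.7% of all genes.

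Insig1 had 10.46, 10.26, 10.18 and 10.22 on arrays 1 to 4 labelled Mll1 knockout, against 10.32, 10.44, 10.42 and 10.54 on wild-type arrays 1 to 4. On 3 of the 4 arrays labelled knockout it lay below every wild-type value, and on array 1 it lay above 3 of them. The difference was -0.15 ± 0.069 (SE, n = 4 each; interval -0.30 to 0.0006; unadjusted p = 0.0508, adjusted p = 0.153), that is 1.11-fold higher in wild-type, and did not pass. Over the 19 alternative analyses, several of which leave the difference itself unchanged, it stayed below 0, between -0.22 and -0.09. The lowest limma adjusted p was 0.0708, when array 1 labelled knockout was left out. Insig2, the paralog that responds less to SREBPs, read 10.36, 10.45, 10.42 and 10.50 on the arrays labelled knockout, against 10.27, 10.36, 10.34 and 10.42 on the wild-type arrays. Its values overlapped, with a difference of 0.09 ± 0.051 (SE; interval -0.03 to 0.20; adjusted p = 0.260).

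Fatty acid synthesis opens with Acly, which frees acetyl-CoA from citrate in the cytosol, and Acaca, the acetyl-CoA carboxylase that commits it to fatty acids, and Fasn then builds palmitate. Acaca read 8.92, 8.89, 8.79 and 8.85 on arrays 1 to 4 labelled Mll1 knockout, against 8.59, 8.83, 8.73 and 8.73 on wild-type arrays 1 to 4. Of the knockout values 3 lay above all wild-type values, and array 3 lay below wild-type array 2. The difference of 0.14 ± 0.058 (SE; interval 0.02 to 0.27; unadjusted p = 0.0307) did not pass after adjustment (adjusted p = 0.116), and without wild-type arrays 1 and 4 it was 0.08. Acly differed by 0.08 (interval -0.03 to 0.18) and Fasn by -0.01 (interval -0.11 to 0.09).

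Of 6 elongation and desaturation genes 5 lay above 0 and 1 below. Fads2, the first desaturase of polyunsaturated fatty acid synthesis, lay nearest to the threshold of all 31. It read 11.14, 11.23, 11.25 and 11.32 on arrays 1 to 4 labelled Mll1 knockout, against 11.04, 11.05, 11.07 and 11.19 on wild-type arrays 1 to 4. Array 1 labelled knockout lay below wild-type array 4, and otherwise the groups were apart. The difference was 0.15 ± 0.055 (SE; 1.11-fold; log2 interval 0.03 to 0.27; unadjusted p = 0.0205, adjusted p = 0.0945). It passed without wild-type array 4 (0.18, adjusted p = 0.0462; 6.28% of all genes were then called higher), with array weights (0.16, adjusted p = 0.0432; 7.07% of all genes) and with each array centred on its median (0.21, adjusted p = 0.0325; 11.9% of all genes). The difference was 0.09 after quantile normalization (adjusted p = 0.339). Fads1, the next desaturase on that route, read 11.87, 11.89, 11.88 and 11.94 on the arrays labelled knockout, against 11.70, 11.83, 11.83 and 11.90 on the wild-type arrays, with a difference of 0.08 ± 0.052 (SE; interval -0.03 to 0.19).

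The stearoyl-CoA desaturases, which place the double bond of oleate, lay on either side of 0. Scd1 read 11.44, 11.51, 11.40 and 11.49 on arrays 1 to 4 labelled Mll1 knockout, against 11.44, 11.52, 11.53 and 11.71 on wild-type arrays 1 to 4. Scd2, the form expressed most widely in brain, read 12.90, 12.93, 12.90 and 12.90 on the arrays labelled knockout, against 12.75, 12.91, 12.81 and 13.05 on the wild-type arrays. Knockout values of Scd1 did not exceed the 3 higher wild-type values, whereas those of Scd2 fell inside the wild-type range, and the differences were -0.09 ± 0.061 (adjusted p = 0.310) and 0.03 ± 0.063 (SE; adjusted p = 0.779). The elongase gene Elovl5 read 10.14, 10.21, 10.18 and 10.20 on the arrays labelled knockout, against 10.05, 10.17, 10.13 and 10.19 on the wild-type arrays. Elovl6, which extends palmitate, read 10.58, 10.49, 10.64 and 10.50 on the arrays labelled knockout, against 10.53, 10.57, 10.55 and 10.42 on the wild-type arrays. Both elongases overlapped between genotypes, with differences of 0.05 ± 0.048 for Elovl5 and 0.04 ± 0.054 for Elovl6 (SE).

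Cyp46a1, the hydroxylase through which neurons dispose of cholesterol, read 11.30, 11.30, 11.34 and 11.56 on arrays 1 to 4 labelled Mll1 knockout, against 11.21, 11.31, 11.29 and 11.28 on wild-type arrays 1 to 4. Array 4 labelled knockout stood above all others, and the other 3 were within 0.03 of the highest wild-type value. The difference was 0.10 ± 0.063 (SE; interval -0.03 to 0.24; adjusted p = 0.266), and 0.04 without that array.

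**Figure D2:**
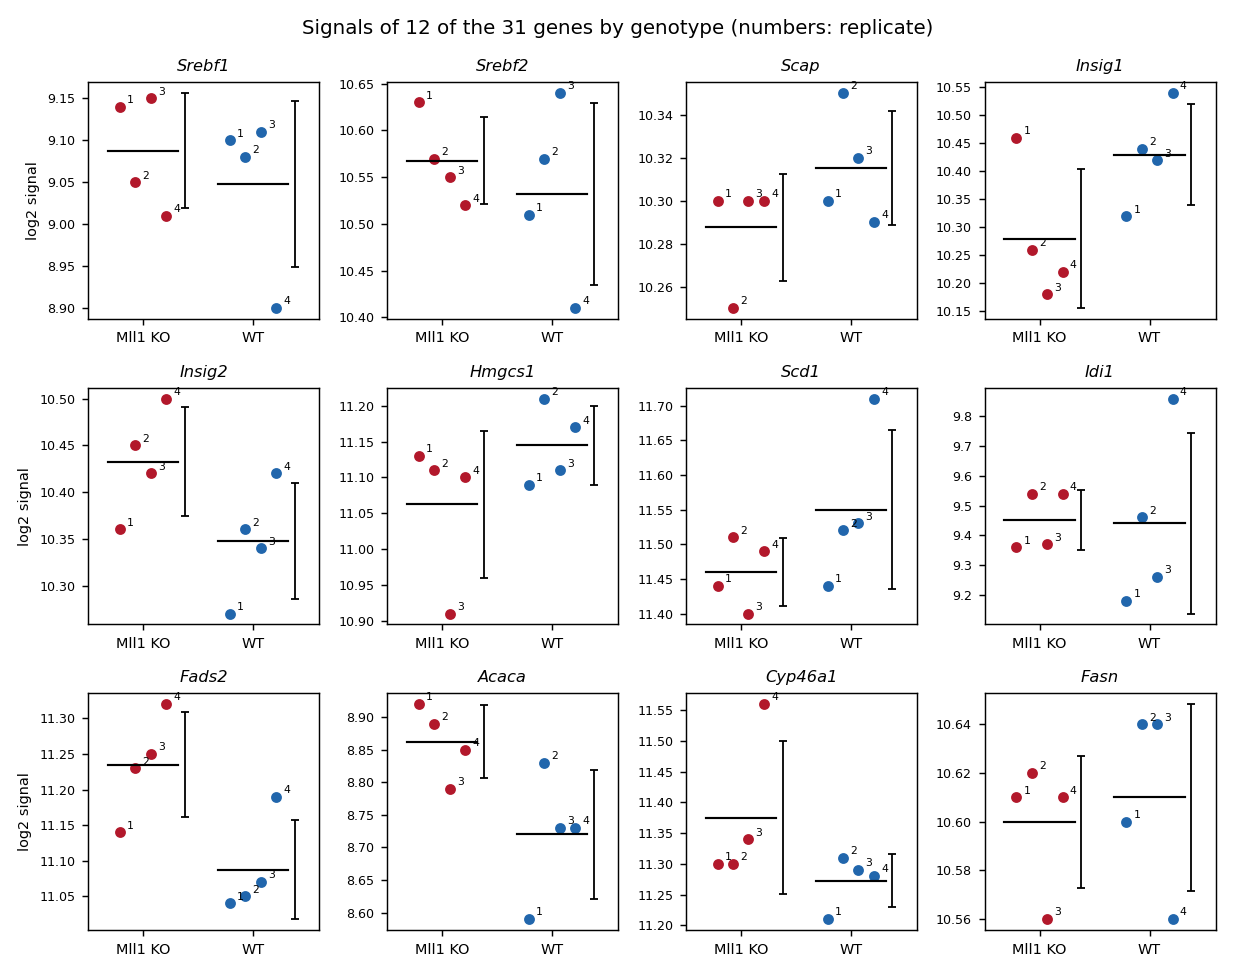
Log2 signal (vertical axes, each with its own range) of 12 of the 31 genes on the arrays labelled Mll1 knockout (red, left) and wild-type (blue, right). Points are arrays with their replicate number, horizontal lines the means and bars beside them the mean ± SD of 4 arrays. The groups overlap in every panel, Insig1 through array 1 labelled knockout and Fads2 through that array and wild-type array 4.

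Scaling changed which genes lay nearest to the threshold. After quantile normalization 4 of the 31 genes had an unadjusted p under 0.05, against 21.5% of all genes. Of these, Insig1 (-0.21, limma adjusted p = 0.0912), Hmgcs1 (-0.14, adjusted p = 0.164) and Scd1 (-0.12, adjusted p = 0.159) lay lower and Acaca (0.13, adjusted p = 0.207) higher. None of the 31 passed after adjustment, while 4.44% of all genes did, 686 as higher and 379 as lower. On those values the groups did not overlap for Hmgcs1, Scap and Scd1, 3 of the 31, against 14.7% of all genes. Cyclic loess likewise put 12 of 31 above 0 and 19 below with no call. Centring each array on its median instead placed 27 of 31 above 0, with 57.5% of all genes, and called 2 of the 31 higher, Fads2 and Acaca (0.20, adjusted p = 0.0444), with 11.9% of all genes. The sign of 10 of the 31 genes changed with quantile normalization. Over all 19 alternatives 12 genes kept their sign. Insig1, Hmgcs1, Scd1 and Mvd lay below 0, and Fads1, Fads2, Acly, Acaca, Lss, Dhcr7, Insig2 and Cyp46a1 above 0. These alternatives are not 19 separate checks of direction, since all use arrays of the same 8. The filter on dim genes, the other tests, the other uses of clusters and the replicate block left each difference unchanged.

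The second comparison asked whether related genes differed from each other in their genotype difference, using the within-array difference of 5 pairs and an exact two-sided permutation test, whose smallest p with 4 against 4 is 0.0286. After Benjamini-Hochberg adjustment over the 5 pairs, fewer than 3 pairs at that smallest p could not pass, and 1 pair alone cannot go below an adjusted p of 0.143. None passed. Scd1 minus Scd2 was -1.46, -1.42, -1.50 and -1.41 on arrays 1 to 4 labelled Mll1 knockout, against -1.31, -1.39, -1.28 and -1.34 on wild-type arrays 1 to 4. All 4 knockout values lay below all wild-type values, a difference of -0.12 with the smallest possible p (exact p = 0.0286, adjusted p = 0.143). Probe sets differ in brightness, so the level of this difference has no meaning between the genes and its shift between genotypes alone was compared. After quantile normalization the shift was -0.08 (exact p = 0.0857). Insig1 minus Insig2 was 0.10, -0.19, -0.24 and -0.28 on the arrays labelled knockout, against 0.05, 0.08, 0.08 and 0.12 on the wild-type arrays. On 3 knockout arrays it lay well below every wild-type value and array 1 lay among them, with a difference of -0.23 (exact p = 0.114, adjusted p = 0.238). Leaving out array 1 labelled knockout gave -0.32 (exact p = 0.0286, adjusted p = 0.143). That is the smallest possible p, and it follows from dropping the only knockout array that lay among the wild-type values. Leaving out each of the other 7 arrays in turn gave -0.25 to -0.19 (exact p = 0.114 to 0.143). Fads1 minus Fads2 differed by -0.07 (exact p = 0.143), Srebf1 minus Srebf2 by 0.005 (exact p = 0.886) and Elovl5 minus Elovl6 by 0.01 (exact p = 0.943).

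**Figure D3:**
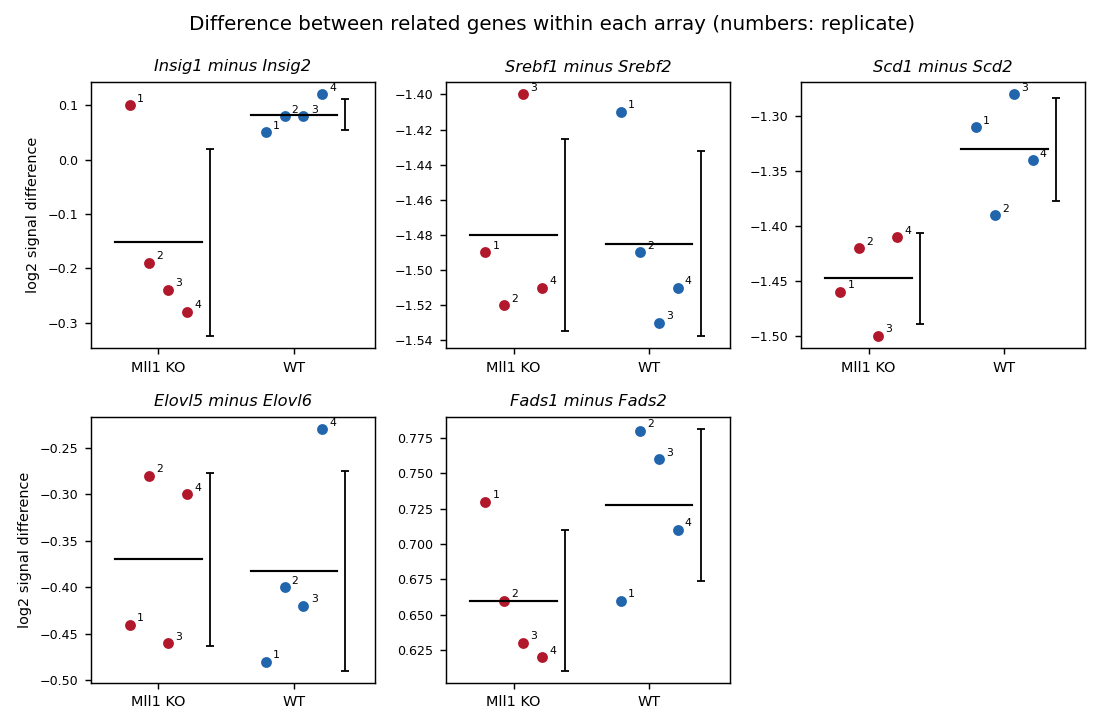
Difference in log2 signal between both genes of a pair within each array (vertical axes, each with its own range), for the arrays labelled Mll1 knockout (red, left) and wild-type (blue, right). Numbers are replicates, lines are means and bars mean ± SD of 4 arrays. Only Scd1 minus Scd2 separates all knockout from all wild-type arrays, and array 1 labelled knockout sits among wild-type arrays for Insig1 minus Insig2.

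The other genes of these pathways were read from 4 lists that hold none of the 31. Of 110 genes tested 3 were called higher (2.73%) and 3 lower (2.73%), against 5.15% and 5.69% of all genes. None of 9 other sterol synthesis genes and none of 21 genes of SREBP processing and sterol sensing passed (limma, adjusted p). Nearest in the first list were Acat1, the mitochondrial thiolase (0.17, adjusted p = 0.0686), and Ggps1, which makes geranylgeranyl diphosphate (0.11, adjusted p = 0.266). In the second list Erlin2 (0.17, adjusted p = 0.0571) and Erlin1 (0.19, adjusted p = 0.0600) were nearest. They encode endoplasmic reticulum proteins that take part in the control of SREBP activation.

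Among 36 genes of sterol uptake, transport and turnover 1 was called higher and 2 lower. Lpl, which releases fatty acids from lipoprotein triglycerides, read 8.47, 8.53, 8.36 and 8.43 on arrays 1 to 4 labelled Mll1 knockout, against 8.17, 8.25, 8.22 and 8.24 on wild-type arrays 1 to 4. Every knockout value lay above every wild-type value, and Lpl rose by 0.23 ± 0.05 (SE; adjusted p = 0.0212). Cyp27a1, the sterol hydroxylase of bile acid synthesis, read 8.05, 8.03, 7.99 and 8.06 on the arrays labelled knockout, against 8.21, 8.21, 8.31 and 8.21 on the wild-type arrays, and fell by 0.20 on the log2 scale (adjusted p = 0.0240). Osbpl1a, an oxysterol-binding protein of late endosomes, read 9.51, 9.42, 9.40 and 9.39 on the arrays labelled knockout, against 9.53, 9.69, 9.61 and 9.70 on the wild-type arrays, and fell by 0.20 (adjusted p = 0.0374). Neither gene overlapped between genotypes, which also held for 19.5% of all genes. After quantile normalization Lpl (0.26, adjusted p = 0.0155) and Osbpl1a (-0.25, adjusted p = 0.0180) still passed and Cyp27a1 did not (-0.15, adjusted p = 0.0915). Lcat, which had not passed on the deposited values (-0.17, limma adjusted p = 0.0627), then passed as lower (-0.21, adjusted p = 0.0448). Leaving out single arrays raised the adjusted p to at most 0.0623 for Lpl, 0.0762 for Cyp27a1 and 0.0992 for Osbpl1a.

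Among 44 other fatty acid genes 2 were called higher and 1 lower. Fads3, a paralog of Fads1 and Fads2, read 9.91, 9.89, 9.93 and 10.03 on arrays 1 to 4 labelled Mll1 knockout, against 9.69, 9.74, 9.80 and 9.74 on wild-type arrays 1 to 4, and rose by 0.20 ± 0.05 (SE; adjusted p = 0.0319). Acot7, an acyl-CoA thioesterase abundant in neurons, read 11.68, 11.72, 11.67 and 11.78 on the arrays labelled knockout, against 11.57, 11.55, 11.56 and 11.49 on the wild-type arrays, and rose by 0.17 ± 0.047 (SE; adjusted p = 0.0410). The elongase gene Elovl3 read 6.89, 6.84, 6.78 and 6.95 on the arrays labelled knockout, against 7.13, 7.16, 7.08 and 7.17 on the wild-type arrays, and fell by 0.27 on the log2 scale (adjusted p = 0.0115). All 3 had groups that did not overlap, as had 19.5% of all genes. None of the 3 passed after quantile normalization (limma adjusted p = 0.119 for Fads3, 0.229 for Acot7 and 0.0721 for Elovl3). Elovl3 is a dim gene, and the 2398 genes of its signal class (means of 6.91 to 7.43) had a median difference of -0.12 on the deposited values. Leaving out single arrays raised the adjusted p to at most 0.0785 for Fads3, 0.0964 for Acot7 and 0.0446 for Elovl3.

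**Figure D4:**
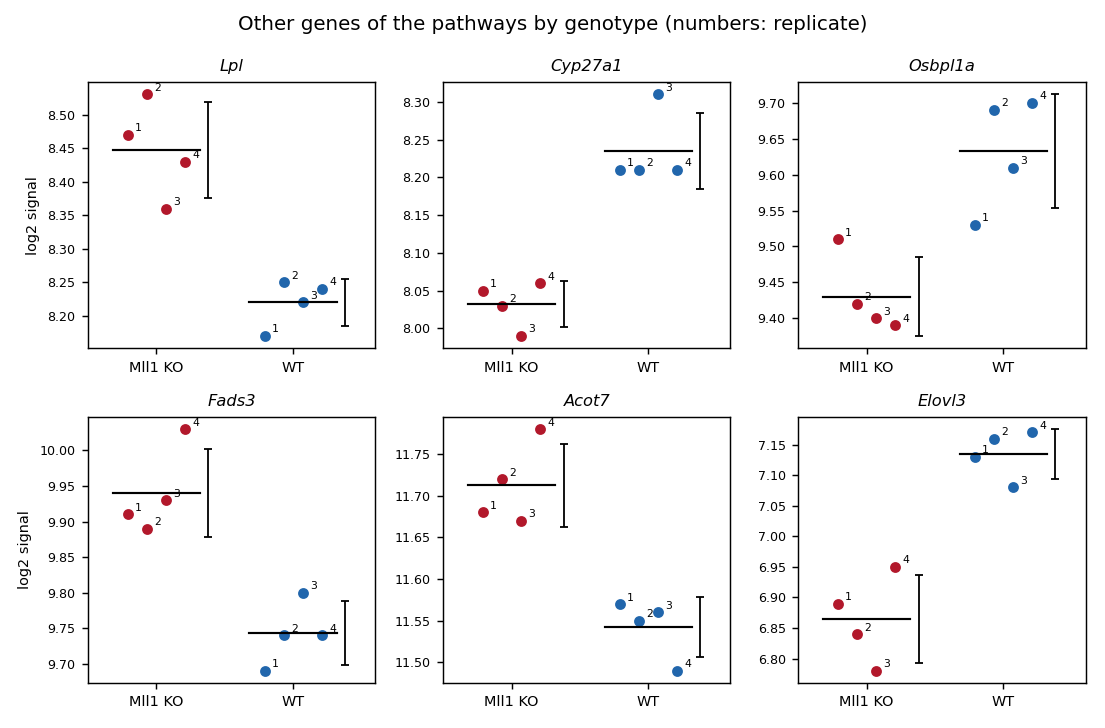
Log2 signal (vertical axes, each with its own range) of 6 further genes of sterol and fatty acid metabolism on the arrays labelled Mll1 knockout (red, left) and wild-type (blue, right), with replicate numbers, means as lines and mean ± SD of 4 arrays as bars. All 6 separate the genotypes on the deposited values, Lpl, Fads3 and Acot7 higher and Cyp27a1, Osbpl1a and Elovl3 lower on the arrays labelled knockout. They are shown because they passed on these same values, and 19.5% of all genes had groups that did not overlap.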

How the data were processed

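Total RNA of prefrontal cortex was labelled with biotin and hybridised to Affymetrix arrays, per the labels' protocols. The deposited log2 signals of 35556 transcript clusters (2 decimals) were used as given. Expression Console, RMA (a method that corrects background, equalises probe distributions and summarises each cluster) and Transcriptome Analysis Console 3.0 are named, without their roles, per the submitters' processing notes. The array model, the annotation release and the genome build are not given in the sources used here. A table of the authors' comparison holds bi-weight mean log2 signals, a signed fold score that is positive where wild-type is higher, and unadjusted and FDR p-values, per the file headers. Gene names came from that table. Arrays carry no count depth, and their number limits precision.

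One cluster per gene, that with the highest mean over all 8 arrays, left 23983 genes, clusters naming several genes being dropped. Differences were fitted with limma 3.58.1 (lmFit, eBayes) in R 4.3.3 on all 8 arrays with genotype alone, as Mll1 knockout minus wild-type, with Benjamini-Hochberg adjustment over all genes and a threshold of 0.05. The 5 pairs used exact permutation tests. The procedure was tested on simulated data. Replicate numbers were not taken as pairs and entered only as an alternative. Whether they pair the arrays is not known.

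The 31 genes, the lists and the tests were chosen with earlier results of these data known. Values on every array are given for the 4 genes of lowest p, the regulators, Cyp46a1 and the pairs, and for passing genes of the other lists. Where no gene of a pathway list passed, the 2 of lowest p are named, and cell type lists are given by counts with passing oligodendrocyte and precursor genes named. Hmgcs1, Idi1 and Dhcr7 were singled out beside that rule. Some genes of the lists are counted but not reported here by name. Alternatives were quantile, cyclic loess and median scaling, array weights, a filter on dim genes, an unmoderated test, robust eBayes with a trend, other uses of clusters, the replicate block, arrays left out and a threshold of 0.1.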

Additional observations from a re-analysis of the deposited data

Results flagged for a closer look

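Each group of 4 arrays was checked for an array far from the other 3 (Dixon's test, 95% level), over 74 groups of values. Chance marks about 1 in 20 groups, and 7 were marked here. On array 3 labelled Mll1 knockout, Hmgcs1 was at 10.91 against 11.10 to 11.13 on the other 3 arrays of that group, Dhcr7 at 9.29 against 9.36 to 9.37, and Fasn at 10.56 against 10.61 to 10.62. On array 2 labelled Mll1 knockout, Scap was at 10.25 and Scd2 at 12.93, where the other 3 arrays all read 10.30 and 12.90. Cyp46a1 was at 11.56 on array 4 labelled Mll1 knockout against 11.30 to 11.34 on the others of that group. Srebf1 was at 8.90 on wild-type array 4, against 9.08 to 9.11 on the other wild-type arrays. For Scap, Scd2 and Fasn the gaps are 0.05, 0.03 and 0.05 of a log2 unit, in values given to 2 decimals.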

How the results depend on the processing

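The count of the 31 genes called lower was 0 under every alternative run, and the count called higher was 0 except for 2 with each array centred on its median (Fads2 0.21, Acaca 0.20), 1 with array weights (Fads2 0.16), 1 at a threshold of 0.1 (Fads2) and 0 to 1 with single arrays left out (Fads2, without wild-type array 4). The mean difference of the 31 genes (0.03) was -0.01 after quantile normalization (-0.0142), -0.02 after cyclic loess (-0.0222), 0.088 with median centring and 0.01 to 0.04 with single arrays left out (0.0082 without wild-type array 1). Counts over all genes, 1236 higher and 1364 lower, became 686 and 379 with quantile normalization, 746 and 437 with cyclic loess, 2845 and 482 with median centring, 552 and 384 with the unmoderated test, 424 and 395 without wild-type arrays 1 and 4, 2237 and 3263 at a threshold of 0.1, and 1695 and 2469 with array weights. Leaving out single arrays gave 398 to 1506 higher and 313 to 1755 lower, the lowest counts without array 3 labelled Mll1 knockout and the highest without wild-type array 4. The replicate number as a block (replicate block) gave 799 higher and 759 lower and called none of the 31 genes. Deviations of same-numbered arrays correlated at -0.008 to 0.024, and the numbers were not taken as pairs, though such values cannot exclude a pairing. The cause of these changes was not tested. With the arrays as they are, interval bounds of the 31 genes stayed within 1.29-fold under all alternatives that gave an interval, the farthest from 0 being under cyclic loess. Smaller differences than these intervals, and changes in protein or lipid amounts, were not measurable here.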
